A study of Mus musculus with 2 samples.

Results

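The genes described here encode 2 ligands (Bdnf, brain-derived neurotrophic factor, and Ntf3, neurotrophin-3), their Trk receptors (Ntrk2, encoding TrkB, and Ntrk3, encoding TrkC), p75 (Ngfr) and sortilin (Sort1). Their Ensembl identifiers are ENSMUSG00000048482 (Bdnf), ENSMUSG00000049107 (Ntf3), ENSMUSG00000055254 (Ntrk2), ENSMUSG00000059146 (Ntrk3), ENSMUSG00000000120 (Ngfr) and ENSMUSG00000068747 (Sort1). They were taken by gene symbol and make up 6 of 45578 genes and 25 of 109463 transcripts in the table. Neurotrophins are small secreted proteins that keep neurons alive and shape their branches and synapses. They bind Trk receptors, which are receptor tyrosine kinases, and the receptor p75, which lacks a kinase. BDNF acts mainly through TrkB and neurotrophin-3 mainly through TrkC. Sortilin carries the precursors through the secretory pathway and joins p75 as a co-receptor for them. TrkB and TrkC each also exist in a truncated form without the kinase, and truncated TrkB is known as an abundant form in astrocytes.

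The values are ribosome footprints, short stretches of mRNA that a translating ribosome shields from nuclease, from polysomes of brains at postnatal day 5. Both animals belonged to 1 control group (n = 2) with the genotype Smn+/-; SMN2tg/0 on an FVB background, so each carried 1 disrupted copy of Smn and a human SMN2 transgene. There is no second condition, and every comparison below is between genes, between transcripts of a gene, or between the replicate libraries. Footprints were not set against RNA abundance here, so a level is ribosome occupancy and not translational efficiency, and bulk brain cannot tell fewer expressing cells from less mRNA per cell.

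The p-values below cover these 2 libraries alone. The library totals were 1866831 counts in replicate 1 and 5261878 in replicate 2, so replicate 2 carries the smaller counting error. All 8 neuronal markers and all 7 astrocyte markers checked had footprints in both libraries. Summed neuronal markers stood in replicate 1 at 5791 CPM (counts per 1000000 of the library) and in replicate 2 at 4682 CPM. Summed astrocyte markers stood at 2449 and 2292 CPM, and oligodendrocyte markers at 1052 and 1242 CPM. The 4 Schwann cell markers, which belong to peripheral nerve, summed to 32.1 and 101 CPM. Choroid plexus markers summed to 629 and 331 CPM, most of it from Ttr at 582 and 277 CPM. Ttr was the 1 of 4 called lower in replicate 2 by the exact binomial test, as were 11.5% of all genes tested. Folr1 went the other way, at 24.1 and 34.8 CPM, and was not called. Markers of endothelial and mural cells summed to 356 and 295 CPM, and these markers did not move together. Of the 6, 2 were called lower in replicate 2 by the same test, and none higher. They were Cldn5, at 144 and 83.1 CPM, and Cspg4, at 46.1 and 32.9 CPM. Flt1, at 30.0 and 44.3 CPM, Pecam1 and Pdgfrb were higher in CPM in replicate 2 and were not called. The part of these cell types in the values of the 6 genes was not tested.

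The 11 Bdnf transcripts in the table differ mainly in the leader ahead of a shared coding exon, since separate promoters drive separate leader exons. The RefSeq table used here has 7 starts for Bdnf, 2 for Ntf3 and 1 each for Ntrk2 and Ngfr, so that Ntrk3 and Sort1 were not searched. The 250 bases before each start were searched for the core of the cAMP response element, the site of the activity-dependent factor CREB, as TGACG or CGTCA, which are the same letters on opposite strands. The core lay before 1 of the 7 Bdnf starts and before none of the 4 starts of Ntf3, Ntrk2 and Ngfr, while 17.8% of 32851 windows of this length over all genes held it. The Bdnf window with the core and the Ntrk2 window are printed because these are the ligand with the many promoters and its receptor. They are from RefSeq's table of build GRCm38.p6, plus strand, at chr2:109692186-109692435 for Bdnf and chr13:58806319-58806568 for Ntrk2, with the core in capitals.
Bdnf: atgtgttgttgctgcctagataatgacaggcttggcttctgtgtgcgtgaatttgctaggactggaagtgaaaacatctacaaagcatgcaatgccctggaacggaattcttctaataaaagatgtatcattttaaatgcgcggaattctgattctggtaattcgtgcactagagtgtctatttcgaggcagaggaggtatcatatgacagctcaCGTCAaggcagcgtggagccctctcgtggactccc
Ntrk2: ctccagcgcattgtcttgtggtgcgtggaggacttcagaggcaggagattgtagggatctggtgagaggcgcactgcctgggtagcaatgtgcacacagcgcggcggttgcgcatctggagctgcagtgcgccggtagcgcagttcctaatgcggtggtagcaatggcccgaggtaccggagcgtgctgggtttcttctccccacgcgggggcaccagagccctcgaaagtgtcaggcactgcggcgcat
The last base of the Bdnf core lies 31 bases before the start. The match describes the letters alone, and no transcript of the count table could be tied to a listed start.

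Levels were compared between genes as CPM per coding kilobase, the CPM of each coding transcript divided by its coding length and summed over the gene. The Trk receptors stood above their ligands. Ntrk2 had 209.8 CPM per coding kilobase in replicate 1 and 184 in replicate 2, a mean of 197 ± 18.2 (SD, n = 2), and lay at percentile 93.2 of coding genes that averaged 10 or more counts. Sort1 had 46.6 and 59.8, a mean of 53.2 ± 9.30 at percentile 73.0. Ntrk3 had 46.1 and 47.6, a mean of 46.8 ± 1.05 at percentile 70.1. The ranges of Sort1 and Ntrk3 overlapped, so their order is not beyond their spread, whereas Ntrk2 lay above both in each library, at 3.70 times the mean of Sort1.

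The ligands and p75 formed the lower part of the range. Bdnf had 16.7 and 34.3 CPM per coding kilobase, a mean of 25.5 ± 12.5 (SD, n = 2) at percentile 54.2. Ngfr had 13.8 and 18.6, a mean of 16.2 ± 3.45 at percentile 41.8, and Ntf3 had 12.8 and 18.4, a mean of 15.6 ± 3.97 at percentile 40.8. The order of the 6 genes was the same in both libraries, but the ranges of Bdnf and Ngfr overlapped, as did those of Ngfr and Ntf3. Ntrk3 lay above Bdnf, its next lower neighbour, in both libraries, by 1.84 times on the means. For each ligand and its preferred receptor, Ntrk2 was at 12.6 times the Bdnf level in replicate 1 and 5.36 times in replicate 2, and Ntrk3 at 3.61 and 2.59 times the Ntf3 level.

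**Figure D1:**
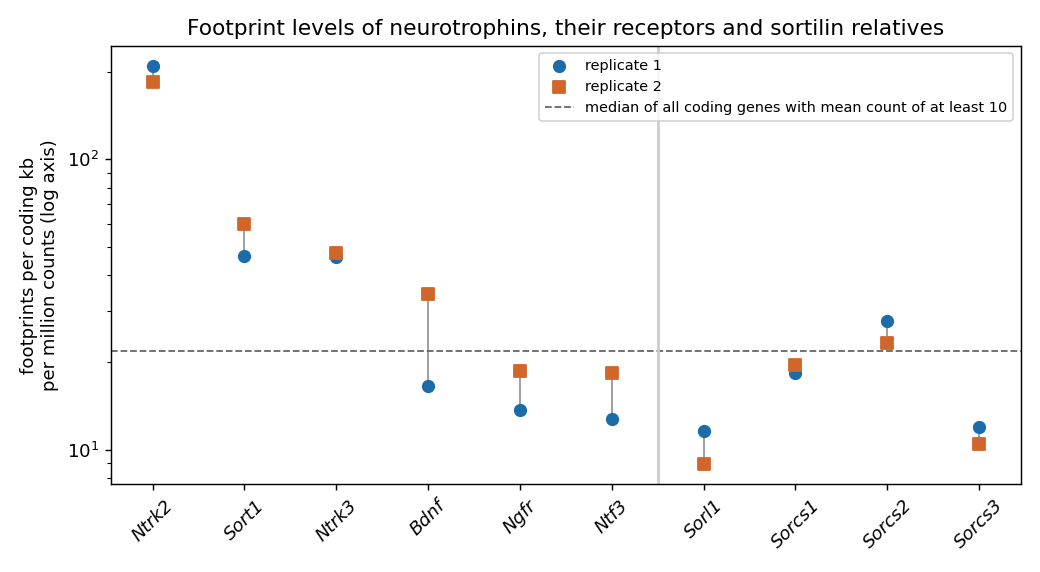
CPM per coding kilobase (log axis) for the 6 genes, left of the grey line, and 4 relatives of sortilin, right of it; circles are replicate 1, squares replicate 2, and the dashed line is the median of coding genes that averaged 10 or more counts. Ntrk2 stands highest in both libraries, and all 4 relatives lie below Sort1.

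The order within the set depended on the length used. Divided by whole transcript length, untranslated parts included, Ntrk3 came second at 39.5 CPM per kilobase and Sort1 next at 19.7, and Bdnf came last at 4.90, below Ngfr at 6.04 and Ntf3 at 9.06. Bdnf transcripts carry a 3′ untranslated region of 2855 nucleotides behind a coding sequence of 750 in most of them. Ntrk2 stayed highest, at 48.1.

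Intervals on CPM and on shares are Clopper-Pearson 95% intervals. Ntf5, which encodes the TrkB ligand neurotrophin-4, had 0 footprints in replicate 1 and 1 in replicate 2. The 0 allows up to 1.61 CPM at a floor of 3 counts, and up to 1.98 CPM by the wider two-sided interval. The intervals and floors cover counting error only, since PCR copies are not independent molecules. The relatives of sortilin had more footprints than Ntf5. Sorcs2 had 25.6 ± 3.18 CPM per coding kilobase, Sorcs1 19.0 ± 0.833, Sorcs3 11.2 ± 1.07 and Sorl1, which encodes the endosomal sorting receptor SORLA, 10.3 ± 1.88 (SD, n = 2), all below Sort1 in both libraries.

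Ntrk2 had 1 full-length and 1 truncated coding transcript. Ntrk2-201 encodes 821 codons, the length of TrkB with its kinase, and held 459 footprints in replicate 1 and 1118 in replicate 2. Ntrk2-202 encodes 476 codons, the length of the truncated form T1, and held 294 and 737. The truncated transcript thus took 39.0% of the footprints in replicate 1 (35.5 to 42.6) and 39.7% in replicate 2 (37.5 to 42.0). The shares differed by 0.687 percentage points, less than counting error, with an adjusted p of 1 in Fisher's exact test over 4439 genes that have both classes. Per coding kilobase the order turned: the truncated transcript held 205 footprints per kilobase against 186 for the full-length one in replicate 1, and 515 against 453 in replicate 2, both in raw counts.

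Ntrk3 had 3 long coding transcripts and 1 truncated. Ntrk3-001 encodes 825 codons, the length of TrkC with its kinase, and held 63 footprints in replicate 1 and 192 in replicate 2. Ntrk3-005 and Ntrk3-006 are longer by 14 and 39 codons, the lengths of known inserts in the TrkC kinase, and held 51 and 139, and 47 and 139. Ntrk3-002 encodes 612 codons, the length of truncated TrkC, and held 41 and 118. It took 20.3% of the footprints on coding transcripts of Ntrk3 in replicate 1 (15.0 to 26.5) and 20.1% in replicate 2 (16.9 to 23.5). The adjusted p was 1 in Fisher's exact test.

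Ntrk3-001 held more footprints in both libraries than each form with a longer coding sequence. Its annotated transcript is the longer one, at 3300 nucleotides with a leader of 625. Ntrk3-005 has 2678 with a leader of 6, and Ntrk3-006 has 2774 with a leader of 0. Per kilobase of whole transcript, Ntrk3-001, Ntrk3-005 and Ntrk3-006 held 19.1, 19.0 and 16.9 footprints in replicate 1. In replicate 2 they held 58.2, 51.9 and 50.1, and the part of the leader was not tested. Set against Ntrk3-001 alone, Ntrk3-005 took 42.0% of the pair in replicate 2 (36.6 to 47.5) and 44.7% in replicate 1 (35.4 to 54.3), and only the interval of replicate 2 lay below 50%. A retained-intron transcript of Ntrk3 held 32 and 102 footprints. A processed transcript, Ntrk3-004, held 1 footprint in replicate 1 and 26 in replicate 2, or 0.426% (0.0108 to 2.35) and 3.63% (2.39 to 5.28) of the gene. The share in replicate 1 rests on 1 footprint, and how often transcripts of other genes differ as much was not examined.

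**Figure D2:**
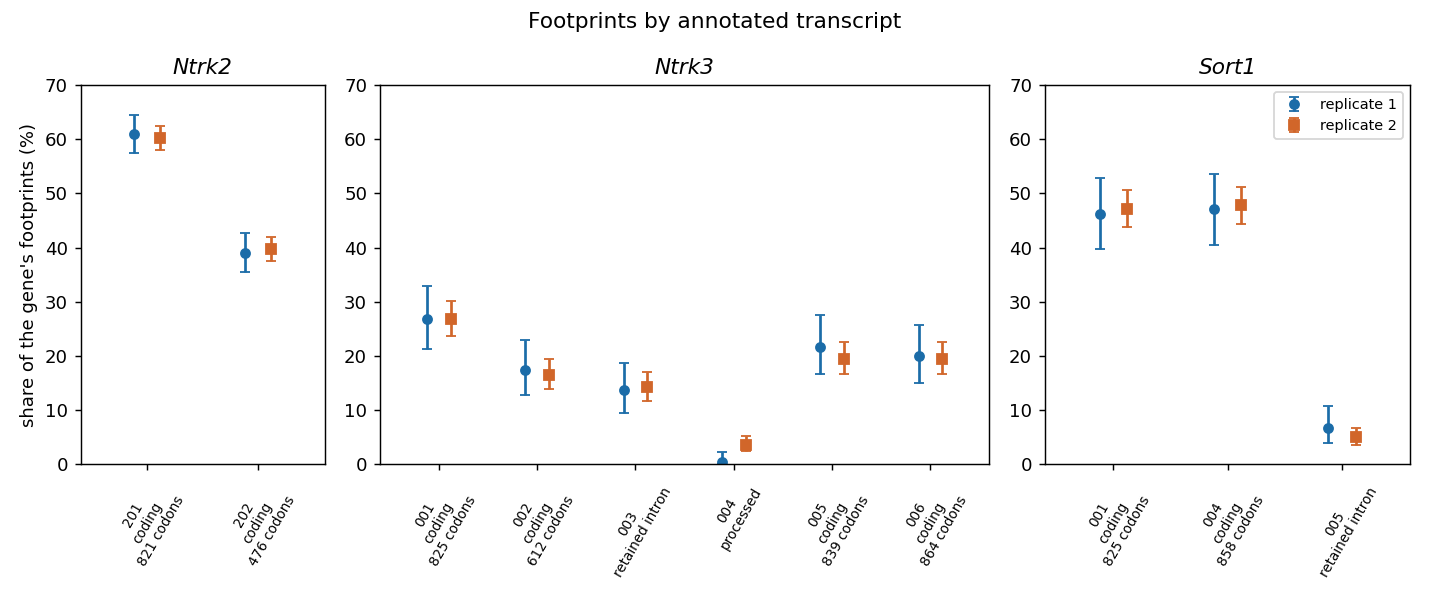
Share of each gene's footprints (%) on each annotated transcript of Ntrk2, Ntrk3 and Sort1, with its biotype and number of codons; circles are replicate 1, squares replicate 2, and bars are Clopper-Pearson 95% intervals. The shares sit close together in both libraries. Ntrk3-004, at 0.426% and 3.63%, held 1 footprint in replicate 1.

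Across all genes with both classes, 7 of 4439 (0.158%) differed in truncated share between the libraries, and neither Trk gene was among them. Ngfr has a single transcript, and both coding transcripts of Ntf3 and of Sort1 lie within 90% of the longest coding length, so these genes have no truncated class. Bdnf was not tested, because its longest coding sequence, Bdnf-010 with 289 codons, held 4 and 9 footprints. The other Bdnf transcripts encode 249 or 257 codons.

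Transcripts of a gene share exons, so their counts depend on how a fragment that matches several of them was assigned, which is not given in the sources used here. The 9 Bdnf transcripts with a coding sequence of 750 nucleotides held 1 to 4 footprints each in replicate 1 and 10 to 21 in replicate 2. The ratio of variance to mean was 0.953 and 0.998, where independent counts of equal means give 1. These transcripts share exons, so their counts need not be independent, and the ratio cannot decide whether they were equally filled. Both Ntf3 transcripts held similar counts, with 9 and 10 footprints in replicate 1 and 39 and 38 in replicate 2. A retained-intron transcript of Sort1 held 16 and 42 footprints. Sort1-004 is 33 codons longer than Sort1-001 and held 111 and 400 footprints against 109 and 395. Its share of the pair was 50.5% (43.7 to 57.2) and 50.3% (46.8 to 53.8). This share counts footprints over whole transcripts, so it cannot show whether the extra codons were used. The assignment of shared fragments itself was not tested. The shares of the Trk transcripts depend on it.

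Between the replicate libraries, 2 of the 6 genes differed beyond counting error, where 17.4% of all 16427 genes that averaged 10 or more counts did. Bdnf was higher in replicate 2, as were 5.95% of all genes, and Ntrk2 lower, as were 11.5%. Higher calls made up 34.2% of all calls, and 60.7% with library totals in place of TMM, which moves every log2 ratio up by 0.13. All 6 genes passed the count minimum. The two-sided exact binomial test used here compares 2 libraries, not conditions, and its p-values are adjusted by Benjamini-Hochberg over all genes tested.

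Bdnf had 24 footprints in replicate 1 and 137 in replicate 2, or 12.9 CPM (8.24 to 19.1) and 26.0 CPM (21.9 to 30.8), and the intervals did not overlap. The log2 ratio of replicate 2 over replicate 1, scaled by TMM, was 0.89 (0.26 to 1.58), called at an adjusted p of 0.0288 (exact binomial test). Among genes within 2-fold of its mean count, 4.77% were called higher in replicate 2. Ntrk2 had 753 and 1855 footprints, or 403 CPM (375 to 433) and 353 CPM (337 to 369). Its log2 ratio was -0.32 (-0.44 to -0.20), called at an adjusted p of 1.02e-05 (exact binomial test), and 42.1% of genes within 2-fold of its mean count were called lower. Both calls were kept with library totals, where the log2 ratio was 1.02 for Bdnf and -0.19 for Ntrk2.

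The other members were not called. Sort1 had 236 footprints in replicate 1 and 837 in replicate 2, or 126 and 159 CPM, with a log2 ratio of 0.21 (-0.0048 to 0.42) that missed the threshold (exact binomial test, adjusted p = 0.193). With library totals Sort1 was called at 0.33 (exact binomial test, adjusted p = 0.0127). Ntrk3 had 235 and 716 footprints, or 126 and 136 CPM, and its log2 ratio of -0.01 (-0.23 to 0.20) was the nearest to 0 of the 6. Ngfr had 33 and 126, or 17.7 and 23.9 CPM, with a log2 ratio of 0.31 (-0.25 to 0.91). Schwann cells carry p75, and their markers were higher in replicate 2 in the values given above, but their part in the Ngfr level was not tested. Ntf3 had 19 and 77 footprints, or 10.2 and 14.6 CPM, with a log2 ratio of 0.40 (-0.34 to 1.21).

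These calls cover counting error alone. When a spread between replicates was added through edgeR's exact test with its common dispersion, estimated from the same pair of libraries, 0 of the 6 genes were called, 0 had an unadjusted p under 0.05, and Bdnf had an unadjusted p of 0.0602 in that test. Represented by its highest transcript alone, with 2 and 21 footprints, Bdnf had a larger log2 ratio of 1.84 but was not called (exact binomial test, adjusted p = 0.357).

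**Figure D3:**
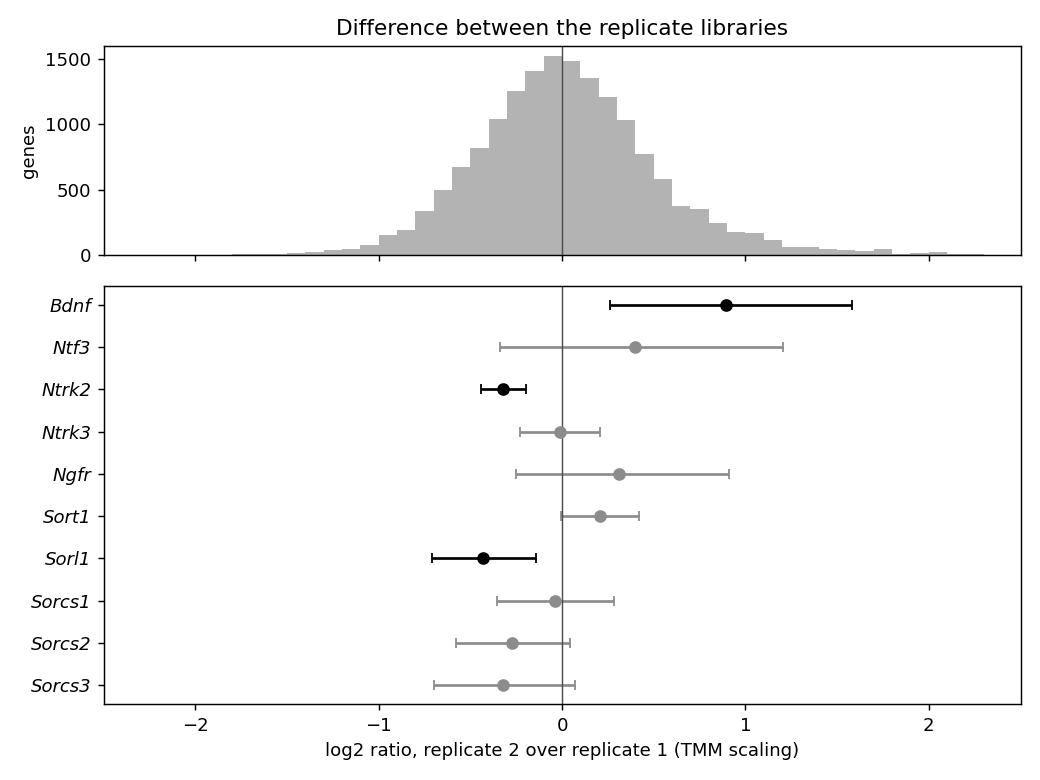
Log2 ratio of replicate 2 over replicate 1 with TMM scaling; above, all genes that averaged 10 or more counts (genes beyond the axis are not drawn), and below, the 6 genes and 4 relatives of sortilin with exact 95% intervals from the Clopper-Pearson bounds, called genes in black. Bdnf lies at 0.89 and Ntrk2 at -0.32, while the intervals of Ntf3, Ntrk3, Ngfr and Sort1 include 0.

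Of the 4 relatives of sortilin, all passed the count minimum and 1 was called. Sorl1 had 151 and 345 footprints and a log2 ratio of -0.43 (exact binomial test, adjusted p = 0.0209), a call lost with library totals (exact binomial test, adjusted p = 0.134). The log2 ratios of Sorcs1, Sorcs2 and Sorcs3 were -0.04, -0.27 and -0.32, none called, and that of Sorcs1 was 0.09 with library totals.

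The rest of the pathway was read from lists of 110 genes, of which 109 were in the table and 107 passed the count minimum. Of these, 33 (30.8%) differed between the libraries against the 17.4% of all genes, 10 higher and 23 lower in replicate 2. The median log2 ratio was -0.04, beside 0.01 over all genes tested. Their median level lay at percentile 66.3, and the share called among genes of like count ran from 7.06% near Ntf3 to 56.2% near Ntrk2, so the count is read as a description of these lists. Every call on a gene named in the following paragraphs was lost with edgeR's exact test and common dispersion, at an adjusted p of 1. The calls on Cadps2, Irs1, Mapk7, Rps6ka3, Pik3r2, Mapk9 and Rab5a were also lost on the transcript with the most counts (exact binomial test, adjusted p from 0.0882 to 0.312).

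Genes that cut or sort neurotrophin precursors were called in 6 of 12 cases, 5 of them lower in replicate 2. Cpe, carboxypeptidase E, a sorting receptor and trimming enzyme of the secretory granule, had 1737 and 2838 footprints and a log2 ratio of -0.91. Pcsk2, a granule convertase, was at -0.54, and Bsg, basigin, at -0.26. Cadps2, which promotes release of granules that hold BDNF, was the exception, with 116 and 644 footprints and a log2 ratio of 0.85. Bsg had the highest level of the list at 589 ± 38.8 CPM per coding kilobase (SD, n = 2), followed by Cpe at 514 ± 193. Plg and Mmp7, which encode extracellular proteases, had 0 footprints in both libraries.

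Adaptors of the Trk receptors were called in 5 of 25 cases, 1 higher and 4 lower. Sos2, an exchange factor for Ras, had a log2 ratio of 1.10 with 41 and 271 footprints. Sh2b1 was at -0.56 and Irs1 at -0.44, a call lost with library totals (exact binomial test, adjusted p = 0.122). The most abundant adaptors were Grb2 at 364 ± 29.8 and Crk at 207 ± 5.71 CPM per coding kilobase (SD, n = 2), and neither was called.

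In the Ras to ERK arm 5 of 19 genes were called, 3 higher and 2 lower. Creb1, the transcription factor that ends this arm, was at 0.84 with 64 and 352 footprints, Mapk7, which encodes ERK5, at 0.64 and Rps6ka3, which encodes the kinase RSK2, at 0.52. The Rps6ka3 level per coding kilobase went the other way, from 105 to 99.2 CPM.

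In the arm of phosphoinositide 3-kinase and AKT 2 of 15 genes were called. Pik3r2, a regulatory subunit, was at -0.38, a call lost with library totals (exact binomial test, adjusted p = 0.0670). The highest levels were those of Gsk3b, a kinase that AKT inhibits, at 216 ± 15.4 and Pik3r1 at 123 ± 7.65 CPM per coding kilobase (SD, n = 2).

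Partners of p75 were called in 10 of 22 cases, 4 higher and 6 lower. Rtn4r, the Nogo receptor that shares a complex with p75, was at -0.63, and Arhgdia, which encodes a GDP dissociation inhibitor that p75 binds, at -0.55. Mapk9, which encodes the kinase JNK2, was at 0.55. The highest levels belonged to Ngfrap1, a small protein that binds the p75 death domain, at 945 ± 98.6 and to its relative Bex1 at 573 ± 121 CPM per coding kilobase (SD, n = 2). Both were called lower in replicate 2, at -0.34 and -0.55.

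Genes that carry Trk receptors through endosomes or restrain them were called in 5 of 15 cases, all lower in replicate 2. They included Sh3gl1, an endophilin, at -0.51, Rab7, of late endosomes, at -0.38, and Rab5a, of early endosomes, at -0.36, and the call on Rab5a was lost with library totals (exact binomial test, adjusted p = 0.246). Rab7 had the highest level at 534 ± 66.8 CPM per coding kilobase, followed by the ubiquitin ligase Nedd4 at 373 ± 1.44 (SD, n = 2). Summed neuronal markers were also lower in replicate 2, with 5 of 8 genes called lower by the same test and none higher. Over all genes 11.5% were called lower, and 42.1% of those within 2-fold of the mean count of Ntrk2. Map2, Dcx and Rbfox3 were higher in CPM in replicate 2 and were not called. The part of the neuronal markers in these values was not tested.

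**Figure D4:**
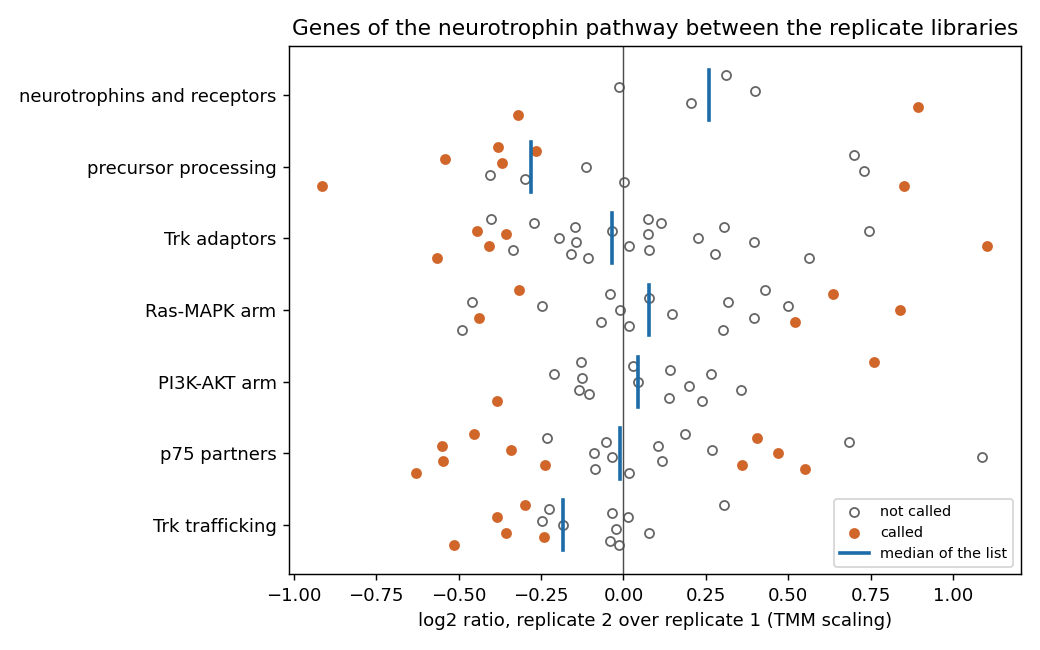
Log2 ratio of replicate 2 over replicate 1 with TMM scaling for each tested gene of the pathway lists, filled where called and open where not, with a bar at the median of each list. Points of every list scatter on both sides of 0.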

How the data were processed

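Per the file headers and labels, the authors deposited raw footprint counts per Ensembl transcript, 1 column per replicate, with annotated lengths. The submitters' processing notes name Trimmomatic 0.36, Bowtie2 2.2.6, SAMtools and build GRCm38.p4, with no roles; handling of duplicates, strand and shared fragments is not given in the sources used here. Fragments of 25 to 35 nucleotides had been selected. Counts were summed per gene, CPM used library totals, and TMM factors (edgeR 4.0.16) were 0.957 and 1.04. Genes that averaged 10 or more counts were tested (exact binomial; Fisher's exact for truncated coding sequences, under 90% of the longest), called at an adjusted p under 0.05, and the code was tested on simulated data. With 1 group no quasi-likelihood model was fitted. Alternatives covered scaling (library totals, DESeq2 1.42.0), filters, lengths and transcript choice.

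Named were the 6 genes, the relatives and, per list, up to 3 called genes by size of log2 ratio and the 2 highest per coding kilobase. Members and lists were chosen with earlier results of these data known. Some genes that this rule names are not reported here; of the listed genes 1 was not analysed. Transcripts are named from 10 counts over both libraries.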

Additional observations from a re-analysis of the deposited data

How the results depend on the processing

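Counted by the transcript with the highest mean count, 1444 genes were called in place of 2861 and 1 of the 6 members in place of 2; with edgeR's exact test and common dispersion, 11 genes (719 at an unadjusted p under 0.05) and 0 members were. Library totals raised the share of called genes higher in replicate 2 from 34.2% to 60.7%. A minimum mean count of 50 per class gave 11 genes with unequal truncated shares in place of 7. As shares of density, the truncated shares were 52.8% for Ntrk2 in place of 39.4% and 25.8% for Ntrk3 in place of 20.2%, and with a replicate left out they ranged from 39.0% to 39.7% and from 20.1% to 20.3%. An estimate chosen after the data were examined took shared fragments as evenly divided and set the density over the additional coding length of the full-length Trk forms against that of the truncated coding length. For Ntrk2 it gave a full-length, not truncated, share of 37.3%. By library this was 38.8% (23.9 to 56.2) in replicate 1 and 35.7% (26.3 to 46.1) in replicate 2. For Ntrk3 the full-length share was 66.0%, or 52.8% with the retained-intron transcript as a sharer. The estimate was not used, since no protein sequence was at hand to set the shared length. Its premise that added coding length adds footprints could not be checked on the long Ntrk3 forms. Ntrk3-005 and Ntrk3-006 held fewer footprints than Ntrk3-001, which has less coding sequence but a longer annotated transcript. The summed level of the 6 genes was 354 CPM per coding kilobase (346 to 363 with a replicate left out), 127 by transcript length and 313 over the longest coding sequence. In CPM it was 704 (696 to 712), and 675 from coding transcripts. Log2 ratios changed sign with library totals for Ntrk3 (0.11), Pik3r1 (0.023) and Sorcs1 (0.086), with the highest transcript for Ntrk3 (0.060) and Grb2 (-0.089), and with coding transcripts for Pik3r1 (0.0039); none of these was called. Except where a setting changes the genes or lengths counted, the cause was not tested. Of 264 comparisons over 38 genes, 215 kept direction and call, 38 lost a call and 5 gained one. No paired analysis was possible because both samples belong to 1 group. Bdnf, Ntf3 and Ngfr have under 40 footprints in replicate 1, which limits their precision.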
